A study of Mus musculus with 7 samples.

Results

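Retnla, Retnlg, Chi3l1, Chi3l3, Chi3l4 and Ear2 are genes of secreted proteins, grouped here as effectors of type 2 (IL4 and IL13 driven) activation of macrophages. This grouping does not show that each of them is such a product. The genes were taken by their symbols, 6 of the 23361 genes listed, and all 6 were present in the table. The values come from RNASeq of macrophages sorted from the regenerative bridge, the tissue that grows inside a conduit between the stumps of a transected nerve. All mice were wild-type BALB/cJ, an inbred strain, and in all of them the left sciatic nerve was cut and repaired at once with a conduit under isoflurane, with meloxicam for pain relief. By their labels the groups differ in the time after repair, with 3 libraries at day 5, 2 at day 14 and 2 at day 28, and there was no uninjured group. A batch of surgery or sorting that followed the time point could not be told apart from it. The age of the mice, and whether a library holds cells of 1 mouse or of several, are not given in the sources used here, so the spread between libraries may be partly technical. Each library held between 18027190 and 35247116 fragments assigned to genes, which with single-end reads is the number of reads. The cells were gated as positive for F4/80, CD14, CD11b and CD16/32 and negative for markers that include Ly6G, Siglec F, CD3e, Ter119 and Thy1.2.

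Type 2 activation starts when IL4 or IL13 binds a receptor that contains the IL4 receptor alpha chain, after which the transcription factor STAT6 enters the nucleus and induces a set of genes in macrophages. Retnla encodes RELMα, a cysteine-rich protein of the resistin family and a classical STAT6 target, and Retnlg encodes its relative RELMγ, best known from myeloid cells of bone marrow and blood. Chi3l1, Chi3l3 (also called Ym1) and Chi3l4 (Ym2) encode chitinase-like proteins, which resemble chitinases but do not cut chitin. Ear2 encodes an eosinophil-associated ribonuclease of the RNase A superfamily, a family that has multiplied in rodents.

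Retnla and Retnlg lie next to each other on chromosome 16 (48842551 to 48844461 and 48872621 to 48874496, plus strand, assembly GRCm38 or mm10), 28.2 kb apart, each with 4 exons. Chi3l3 and Chi3l4 (Chil3 and Chil4 in the GENCODE annotation) are neighbours on the minus strand of chromosome 3 (106147554 to 106167564 and 106201490 to 106219507), 33.9 kb apart. Chi3l1 (Chil1) is the only member on chromosome 1 (134182176 to 134190181, plus strand). The chitinase gene Chit1, not a member, lies near it on the same strand (134111242 to 134151540). Ear2, a gene of 2 exons, lies on chromosome 14 (44102654 to 44103534, plus strand) among its relatives. The sequence before the start of transcription is shown for the neighbouring pairs and for Ear2, because the results below separate each pair. All 6 genes were matched in the RefSeq promoter table (GRCm38.p6). The stretches run 5′ to 3′ and end before the first base that either annotation counts as transcribed.
Retnla promoter, chr16:48842359-48842550, plus strand: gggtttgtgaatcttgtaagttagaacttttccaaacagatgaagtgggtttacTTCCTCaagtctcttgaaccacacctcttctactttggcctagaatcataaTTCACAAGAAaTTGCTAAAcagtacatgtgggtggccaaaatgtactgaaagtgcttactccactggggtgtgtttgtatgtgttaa
Retnlg promoter, chr16:48872358-48872607, plus strand: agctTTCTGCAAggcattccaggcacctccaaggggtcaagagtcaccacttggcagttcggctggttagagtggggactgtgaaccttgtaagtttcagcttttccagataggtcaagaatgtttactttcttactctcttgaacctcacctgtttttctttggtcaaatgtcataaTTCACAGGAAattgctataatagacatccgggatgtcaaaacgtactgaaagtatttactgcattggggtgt
Chi3l3 promoter, chr3:106167565-106167814, minus strand: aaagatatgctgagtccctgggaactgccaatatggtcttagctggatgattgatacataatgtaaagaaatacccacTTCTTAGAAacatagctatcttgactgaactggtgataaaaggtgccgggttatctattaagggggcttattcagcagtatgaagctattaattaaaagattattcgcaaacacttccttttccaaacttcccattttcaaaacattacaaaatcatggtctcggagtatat
Chi3l4 promoter, chr3:106219508-106219729, minus strand: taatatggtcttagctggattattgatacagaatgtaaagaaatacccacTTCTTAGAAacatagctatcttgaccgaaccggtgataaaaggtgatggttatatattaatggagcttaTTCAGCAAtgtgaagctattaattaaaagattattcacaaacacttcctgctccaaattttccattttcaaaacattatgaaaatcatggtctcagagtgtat
Ear2 promoter, chr14:44102404-44102653, plus strand: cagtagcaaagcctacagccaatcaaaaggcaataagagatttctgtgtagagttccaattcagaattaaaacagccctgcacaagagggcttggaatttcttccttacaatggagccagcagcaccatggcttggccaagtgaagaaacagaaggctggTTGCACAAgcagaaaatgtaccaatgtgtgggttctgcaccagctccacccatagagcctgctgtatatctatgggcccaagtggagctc

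The capitals mark matches to 4 motifs, searched on both strands. These were TTC and GAA with 4 bases between them, the spacing that STAT6 prefers, TTCNNNGAA, the spacing of other STAT factors, TTGCNNAA, of the type that C/EBP factors bind, and GAGGAA, of the type that PU.1 binds. Retnla held a STAT6-type match that begins 145 bases before the RefSeq start, TTCACAAGAA and just after it a C/EBP-type match, TTGCTAAA, at 134 bases. A PU.1-type match on the minus strand lay at 196 bases. Retnlg held a STAT6-type match at 72 bases, TTCACAGGAA, and a C/EBP-type match at 246 bases on the minus strand. Thus both resistin-like genes carried the STAT6 spacing, which 5.9% of the 27025 mouse promoters searched over the same 250 bases also held. Chi3l3 and Chi3l4 both held TTCTTAGAA, the shorter STAT spacing, at 172 and 200 bases (7.2% of promoters), and Chi3l4 a C/EBP-type match at 131 bases. Ear2 held a C/EBP-type match at 90 bases (9.6% of promoters), TTGCACAA, and neither STAT spacing. Chi3l1 held none of the 4 motifs in this window, and the PU.1-type motif was found in 23.1% of all promoters. Of the 250 bases of each promoter, 175 were aligned between Retnla and Retnlg, and 138 of these (78.9%) were identical. Between Chi3l3 and Chi3l4, 201 of 221 aligned bases (91.0%) were identical. The other columns of the alignments, 150 and 58, held a gap. A match is a run of letters in this window and was not tested as a binding site.

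To see how far short reads can separate these genes from their relatives, every window of 75 bases in their GENCODE transcripts was looked up in the transcripts of all other genes. None of the windows of Retnla, Retnlg or Chi3l1 occurred elsewhere. For Chi3l3, 208 of 1606 windows also occurred in Chi3l4 or in the predicted gene Gm6522. For Chi3l4 the share was 5.3%. For Ear2, 151 of 645 windows (23.4%) were shared with annotated genes, 119 of them with Ear10. Ear12, Ear4 and Ear7 were not placed in this annotation, so what they share with Ear2 was not computed and is not in that figure. The longest transcripts of Ear2 and Ear1 were 96.8% identical, those of Chi3l3 and Chi3l4 94.4%, and those of Retnla and Retnlg 84.5%. Exact reads of this length from Retnla, Retnlg and Chi3l1 thus fit a single gene, whereas part of the reads of Ear2 and Chi3l3 could have been assigned to a relative.

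Retnla and Ear2 were higher at both later days than at day 5, and no other member passed the test in any comparison. Of the 6 genes, 5 passed the expression filter, and 2 of these were called higher at day 14 than at day 5 and none lower, at an adjusted p under 0.05 by edgeR (quasi-likelihood test, p-values adjusted by Benjamini and Hochberg's method over 12858 tested genes). In that comparison 2.84% of all genes tested were called higher and 1.94% lower. Between days 14 and 28 no member was called by this edgeR test, in a comparison that called 0.0311% of genes higher and 0.0311% lower. An unadjusted p under 0.05 was found for 3 members there, and for 1570 of the 12858 genes tested. DESeq2 and limma on log2 FPKM values called no member there either. Between days 5 and 28, Retnla and Ear2 were again called higher, against 7.74% of all genes higher and 7.51% lower. The comparisons share libraries, so they are not independent. In the bulk RNA of sorted cells, a change in the share of cells that express a gene and a change of its level per cell cannot be told apart.

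**Figure D1:**
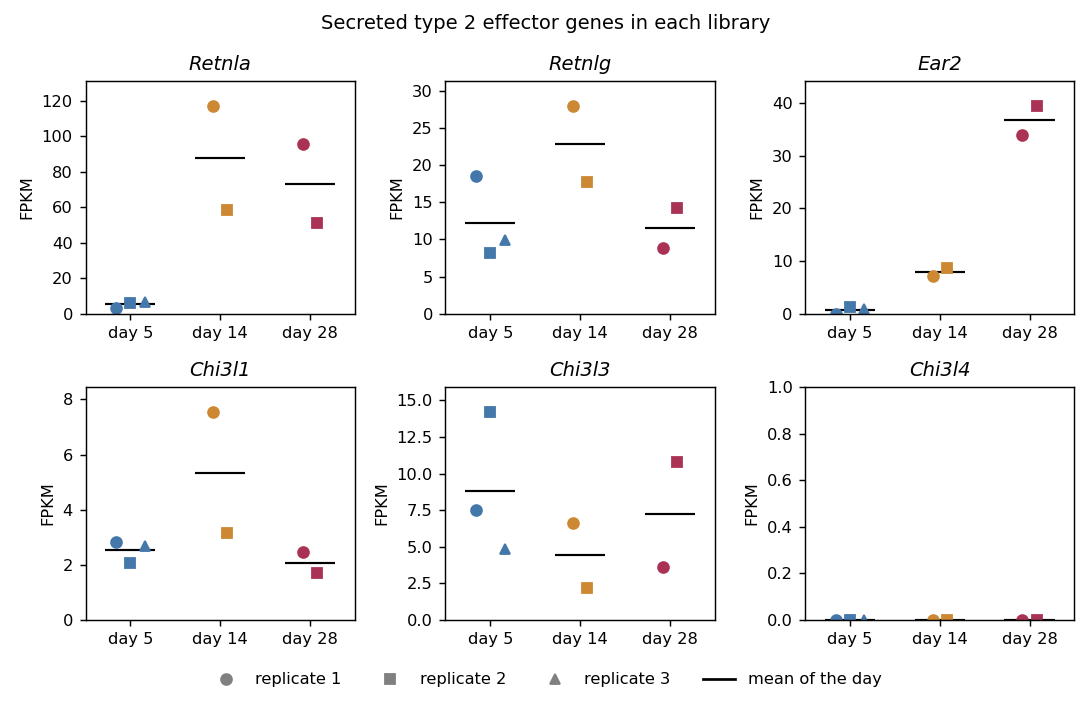
FPKM (linear axis from 0) of each gene in each library, with symbols for the replicate number and a bar for the mean of the day. Retnla is low in the 3 day 5 libraries and high in the other 4, Ear2 is higher at each later time point, Retnlg and Chi3l1 have their highest library at day 14, and Chi3l4 is listed at 0 throughout.

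Retnla had the largest level of the 6 at days 14 and 28. At day 5 it was expressed at 3.21, 6.0 and 6.32 FPKM (fragments scaled to transcript length and library size) in replicates 1, 2 and 3. At day 14 the values were 117 and 58.4 FPKM, and at day 28 they were 95.5 and 50.8 FPKM. Every library of days 14 and 28 lay above every library of day 5, and within each of the later days replicate 1 was the higher of the 2. The fragments behind these values numbered 31 to 55 at day 5, 520 and 842 at day 14, and 388 and 1465 at day 28. Ranked by FPKM among the genes tested in the same library, Retnla stood at percentiles 35.4 to 46.5 at day 5 and 88.2 to 94.2 later. Its level was 17.1-fold higher at day 14 than at day 5 (log2 fold change 4.1, SE 0.4, 95% interval of the fold 9.23 to 31.7, adjusted p = 0.0051, edgeR). From day 14 to day 28 its mean went from 87.8 ± 41.6 FPKM (SD, n = 2) to 73.1 ± 31.6 FPKM (n = 2), a log2 fold change of -0.24 with a 95% interval from -1.09 to 0.61 (adjusted p = 0.835, edgeR). The interval of the fold in this second step ran from 0.468 to 1.52, so a moderate change in either direction was not detectable with these libraries. At day 28 the level was 14.4-fold higher than at day 5 (log2 fold change 3.85, SE 0.39, adjusted p = 0.000931, edgeR).

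Retnlg, the gene next door, was measured at levels of the same order at all 3 days. It was expressed at 18.6, 8.24 and 9.98 FPKM at day 5, at 28.0 and 17.7 FPKM at day 14, and at 8.84 and 14.2 FPKM at day 28, from 69 to 206 fragments per library. The day 14 values overlapped those of day 5, since day 5 replicate 1 lay above day 14 replicate 2, whereas both day 28 libraries lay below both of day 14. None of the differences passed the test. Its change on the log2 scale was 0.9 (SE 0.37, adjusted p = 0.185) from day 5 to day 14, -1.0 (SE 0.42, adjusted p = 0.383) from day 14 to day 28, and -0.1 (95% interval -0.97 to 0.77, adjusted p = 0.885) over the whole course (edgeR). The order within the pair was the reverse of that at day 5 from day 14 on. At day 5 the FPKM of Retnla was 0.173, 0.728 and 0.634 times that of Retnlg in replicates 1, 2 and 3, so Retnlg was the more abundant transcript in every library. At day 14 it was 4.19 and 3.29 times, and at day 28 it was 10.8 and 3.58 times, that of Retnlg. These ratios compare levels per transcript length within a library and are given without a test.

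The remaining resistin genes were close to absent. Retnlb, the RELMβ gene, which lies on the same stretch of chromosome 16, had 0 fragments in all 7 libraries, and Retn, the resistin gene, had 0 to 9 fragments. A count of 0 allows up to 3 fragments, or 0.0851 to 0.166 CPM (fragments scaled to library size) depending on the library, for counting error only.

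The level of Ear2 was higher at each later time point. Ear2 had an estimate of 0 fragments after rounding in day 5 replicate 1. In replicates 2 and 3 it had 14 and 10.4 estimated fragments, for 1.32 and 0.923 FPKM. At day 14 it was expressed at 7.08 and 8.69 FPKM and at day 28 at 34.0 and 39.5 FPKM, from 66 to 677.2 fragments. The 3 days did not overlap at any point, and at days 14 and 28 the libraries of the same day were closer to each other than those of Retnla. On the log2 scale the difference was 3.47 from day 5 to day 14 (SE 0.6, adjusted p = 0.0209, edgeR), 2.22 from day 14 to day 28 (SE 0.53, 95% interval 1.04 to 3.41, adjusted p = 0.137, edgeR), and 5.69 from day 5 to day 28 (SE 0.58, adjusted p = 0.000931, edgeR). The second step thus failed the correction for 12858 genes, although both day 28 libraries lay above both day 14 libraries. The last of these values is a 51.7-fold difference with a 95% interval from 21.0 to 127. Because Ear2 reached the count needed by the expression filter in 1 of 3 libraries at day 5 and in all 4 later ones, it entered the test through the days at which it is high. Apart from the replicate block, the call for the first step was lost in a fit of days 5 and 14 alone (adjusted p = 0.0668), with limma on log2(FPKM + 0.1) (0.0694), without day 5 replicate 3 (0.0731) and without day 28 replicate 2 (0.0509, edgeR but for limma), and its adjusted p ran from 1.6e-05 to 0.0975 over all alternatives. The call between days 5 and 28 was kept in all 16 alternatives.

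**Figure D2:**
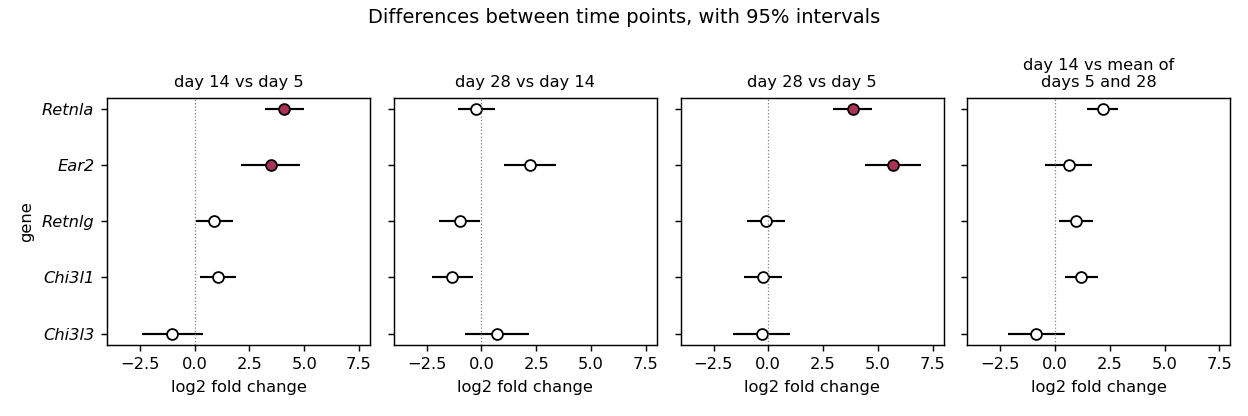
Log2 fold change of the 5 tested members (points) in each comparison with 95% intervals (lines), filled where the adjusted p is under 0.05 in edgeR's test. Retnla and Ear2 are filled at day 14 vs day 5 (4.1 and 3.47) and at day 28 vs day 5 (3.85 and 5.69), and Ear2 alone lies above 0 with its whole interval at day 28 vs day 14.

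To compare the shapes of the courses, day 14 was also set against the mean of days 5 and 28 on the log2 scale, where a gene that moves in even steps gives 0. Retnla gave 2.17 (SE 0.32, adjusted p = 0.0859), the largest value among the members, and Ear2 gave 0.62 (95% interval -0.45 to 1.7, adjusted p = 0.631). Retnlg gave 0.95 (adjusted p = 0.322), Chi3l1 1.2 (adjusted p = 0.224) and Chi3l3 -0.86 (adjusted p = 0.572). No member passed in this comparison (edgeR), which called 0.00778% of all genes higher and 0.00778% lower. Of the members, 3 had an unadjusted p under 0.05, as did 1621 of the 12858 genes tested. DESeq2 called 1 member, Retnla, with an adjusted p of 2.48e-08 in a test that called 193 genes, and over all alternatives the adjusted p of Retnla ran from 2.48e-08 to 0.306.

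Counted by library, 3 of the 5 tested members (Retnla, Chi3l1 and Ear2) had both day 14 libraries above all 3 of day 5 in normalised counts, as did 22.3% of all genes tested. Retnla and Ear2 had both day 28 libraries above all of day 5, as did 26.9% of all genes. Between days 14 and 28, Ear2 was higher in both libraries, as were 19.5% of genes, and Retnlg and Chi3l1 were lower in both, as were 19.5% of genes.

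The deposited table lists 10 Ear genes, and their reads were followed together since Ear2 shares sequence with several. All Ear genes together received 5, 22 and 21 fragments in the day 5 libraries, 96 and 138 at day 14, and 783 and 454 at day 28. Ear2 took 63.5% and 49.6% of them in day 5 replicates 2 and 3, 68.7% and 72.8% at day 14, and 86.5% and 86.3% at day 28. Ear1 and Ear10, whose sequences could be compared with Ear2, had 0 to 4 and 0 to 1 fragments. Most of the other fragments went to Ear12, which had 3, 2 and 8.6 at day 5, 0 and 32.5 at day 14, and 69.8 and 24.4 at day 28, and to Ear11 (Rnase2a in the annotation), which had 2, 6 and 2 at day 5, 28 and 3 at day 14, and 32 and 31 at day 28. To 1 decimal, the estimates of Ear2 and Ear12 were fractional in 4 libraries. They added up to whole numbers there within 0.0003 fragments (19 in day 5 replicate 3, 133 in day 14 replicate 2, and 747 and 416 at day 28). Ear2 in day 5 replicate 1 (1.02e-06 CPM) and Ear12 in day 14 replicate 1 (0.000159 CPM) were also not exactly 0. Their 0 fragments are thus rounded estimates. Reads were divided between the pair, and how many came from each gene was not tested. Ear11 and Ear12 were higher in each day 28 library than in any of day 5 but did not pass the test (log2 fold change 2.95 and 2.86, adjusted p = 0.0749 and 0.115, edgeR), although DESeq2 called Ear11. At day 14 the estimates of Ear11 and Ear12 were uneven, Ear11 being found mainly in replicate 1 and Ear12 almost wholly in replicate 2. Ear4, Ear5, Ear6, Ear7 and Ear14 had at most 3 fragments in any library. When the fragments of all Ear genes were added up before the test, the rise by day 14 was 2.98 (adjusted p = 0.013) and that by day 28 was 4.91 (adjusted p = 0.000512, edgeR), and both calls were kept.

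**Figure D3:**
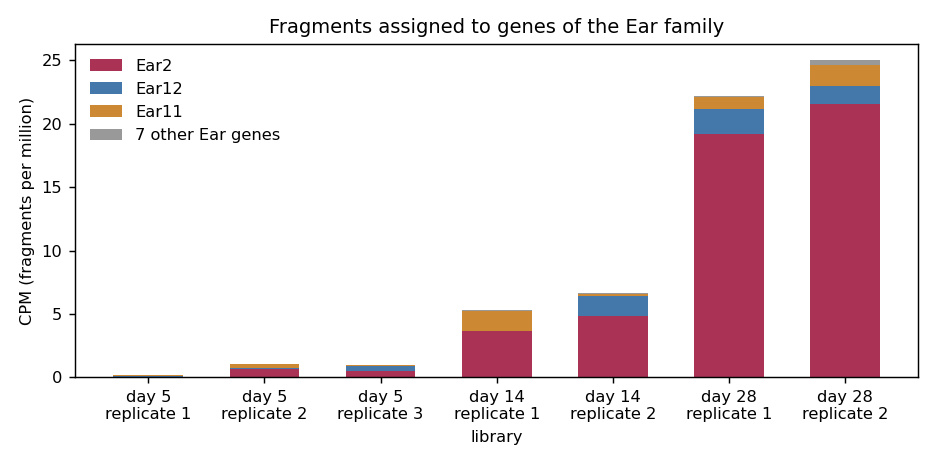
CPM assigned to Ear2, Ear12, Ear11 and 7 other Ear genes, stacked, in each library. The bars grow from day 5 to day 14 to day 28, and Ear2 makes up 86.5% and 86.3% of the fragments in the day 28 libraries.

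None of the chitinase-like genes was called in any comparison. Chi3l1 was expressed at 2.84, 2.06 and 2.67 FPKM at day 5, at 7.54 and 3.14 FPKM at day 14, and at 2.45 and 1.71 FPKM at day 28, from 49 to 203 fragments. Both day 14 libraries were above all others, replicate 1 by far the most. On the log2 scale it differed by 1.08 (SE 0.37, adjusted p = 0.117) from day 5 to day 14 and -1.33 (SE 0.41, adjusted p = 0.239) from day 14 to day 28, and days 5 and 28 differed by -0.25 (95% interval -1.11 to 0.61, adjusted p = 0.696, edgeR). Day 14 replicate 1 carried much of this. Without it the first value was 0.33, and without day 14 replicate 2 it was 1.58 with an adjusted p of 0.0317 (edgeR), in a range from 0.0317 to 0.618 over all alternatives.

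Chi3l3 had the widest spread of the 5. It was expressed at 7.48, 14.2 and 4.84 FPKM at day 5, 6.61 and 2.2 FPKM at day 14, and 3.61 and 10.8 FPKM at day 28, from 66 to 392 fragments. The days overlapped in every comparison. The log2 difference was 0.7 (95% interval -0.77 to 2.17, adjusted p = 0.707) from day 14 to day 28 and -0.31 (95% interval -1.62 to 1.0, adjusted p = 0.755) from day 5 to day 28 (edgeR). Between days 5 and 14 the interval ran from -2.38 to 0.36 (adjusted p = 0.346, edgeR), so neither a decrease to about 0.192 times the day 5 level nor a 1.28-fold increase lies outside it. Its within-day SD of log2(CPM + 1) was 0.85, larger than in 99.4% of the 3002 tested genes of like level. The same SD was 0.52 for Retnla (98.1% of 3619 genes), 0.46 for Retnlg (93.2%), 0.43 for Chi3l1 (89.7%) and 0.3 for Ear2 (74.1%).

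Chi3l4 had 0 fragments in all 7 libraries, in contrast to Chi3l3, whose promoter and transcript it nearly shares. Only 5.3% of its windows occur in another gene, so reads from most of its transcript would carry its own sequence. The enzymatically active chitinases were near 0 as well, with 0 to 3 fragments for Chia and for Chit1. Chid1 and Ctbs, which encode relatives that act on or resemble enzymes acting on sugar chains, were expressed at means of 6.81 to 7.44 FPKM and 10.7 to 13.7 FPKM per day, and Ovgp1 at 0.157 to 0.312 FPKM. None of these 3 was called in any comparison by edgeR (lowest adjusted p = 0.164, 1 of them at an unadjusted p under 0.05 between days 5 and 14), and none by DESeq2 or limma.

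The upstream genes were set beside the members from a list of 23 genes of type 2 signalling, of which 19 were tested. Of the cytokine genes in the list, Il4 had 0, 2 and 6 fragments at day 5, 6 and 5 at day 14, and 16 and 4 at day 28, and Il13 had 0 to 5 fragments, while Il25 had 0 in all libraries. Il33 and Tslp, which encode cytokines that stimulate type 2 responses, had 15 to 100 and 8 to 51 fragments (up to 2.37 and 1.41 FPKM) and were not called by edgeR in any comparison between days. Il4ra, the receptor chain shared by IL4 and IL13, had 84.2, 71.8 and 63.7 FPKM at day 5, 88.1 and 41.5 at day 14, and 34.7 and 35.5 at day 28. It was thus lower at day 28 than at day 5 (log2 fold change -1.05, adjusted p = 0.0314, edgeR) while Retnla and Ear2 were higher. Stat6 lay between 71.4 and 81.5 FPKM in all 7 libraries, and its log2 fold change from day 5 to day 28 was -0.06 with a 95% interval from -0.31 to 0.19 (adjusted p = 0.748, edgeR). Irf4, a transcription factor that takes part in alternative activation, had 3.2, 3.66 and 3.07 FPKM at day 5, 8.91 and 4.84 at day 14, and 12.6 and 12.5 at day 28. It was higher at day 14 (log2 fold change 1.06, adjusted p = 0.0337) and at day 28 (1.94, adjusted p = 0.00129, edgeR) than at day 5. Also between days 5 and 28, Ppargc1b, a coactivator linked to oxidative metabolism, rose by 1.21 (adjusted p = 0.0486), and Jak3, a kinase that works with the common gamma chain, fell by 1.0 (adjusted p = 0.00633, edgeR). In all, 1 of the 19 was called higher and none lower by day 14, none was called between days 14 and 28 (4 at an unadjusted p under 0.05), and 2 were higher and 2 lower by day 28. Of all genes tested, 2.84% were called higher and 1.94% lower by day 14, and 7.74% higher and 7.51% lower by day 28. The median log2 fold changes of the list were -0.05, -0.09 and -0.24, against 0.03, 0.01 and 0.03 for all genes tested. Between days 14 and 28, DESeq2 called Irf4 higher and Il4ra and Jak3 lower, and limma on log2(FPKM + 1) called none. By day 14, DESeq2 called Irf4 and limma none. By day 28 against day 5, DESeq2 called 2 genes higher and 5 lower, with Cebpb, Il2rg and Socs1 added to the lower ones. There limma called Irf4 higher and Il4ra and Jak3 lower, but not Ppargc1b. Between these days 9 of the 19 had an unadjusted p under 0.05 (edgeR), as did 4046 of the 12858 genes tested.

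Other products of alternative activation were split. Of 15 genes, all tested, 3 were higher and 1 lower at day 14 than at day 5, none was called between days 14 and 28 (2 at an unadjusted p under 0.05, while DESeq2 called Ccl24 and Clec7a higher and limma none), and 6 were higher and 3 lower at day 28 than at day 5. Of all genes tested, 2.84% were called higher and 1.94% lower by day 14, and 7.74% higher and 7.51% lower by day 28. The medians of the list were 0.61, 0.41 and 1.02, against 0.03, 0.01 and 0.03 for all genes. The genes that rose by both later days were Clec7a, the beta-glucan receptor Dectin-1 (1.22 and 2.15, adjusted p = 0.0179 and 0.000641), Mgl2, a galactose-type lectin (1.64 and 2.13, adjusted p = 0.0184 and 0.00191), and Ccl24, a chemokine that attracts eosinophils (0.65 and 1.52, adjusted p = 0.0395 and 0.000706, edgeR). Ccl24 was at 33.0 to 43.8 FPKM at day 5, 68.3 and 55.6 at day 14 and 112 and 114 at day 28, without overlap. By day 28, Socs2 (1.45, adjusted p = 0.0193), Pdcd1lg2 (1.35, adjusted p = 0.0276) and Cdh1 (1.02, adjusted p = 0.0488, edgeR) had also risen. Arg1, which encodes arginase 1 and like Retnla is a standard marker of IL4-treated mouse macrophages, went the other way, from 998, 656 and 893 FPKM at day 5 to 235 and 262 at day 14, with 387 and 271 at day 28. It was called lower in both comparisons with day 5 (log2 fold change -1.77 and -1.35, adjusted p = 0.00926 and 0.00485, edgeR). The mannose receptor gene Mrc1 fell by 0.73 (adjusted p = 0.0347) and Tgm2, a transglutaminase, fell by 0.56 (adjusted p = 0.0482, edgeR) between days 5 and 28. Some calls depended on the tool. By day 14, limma on log2(FPKM + 1) did not call Ccl24, and DESeq2 also called Alox15 and Ccl17 higher. By day 28, DESeq2 did not call Cdh1, limma did not call Tgm2, and both called Ccl17 higher. In edgeR, Ccl17 did not pass at day 14 (1.82, adjusted p = 0.0734) or day 28 (1.69, adjusted p = 0.0552). These lists were assembled with earlier results of these data known, and their counts describe them without a test of the lists.

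**Figure D4:**
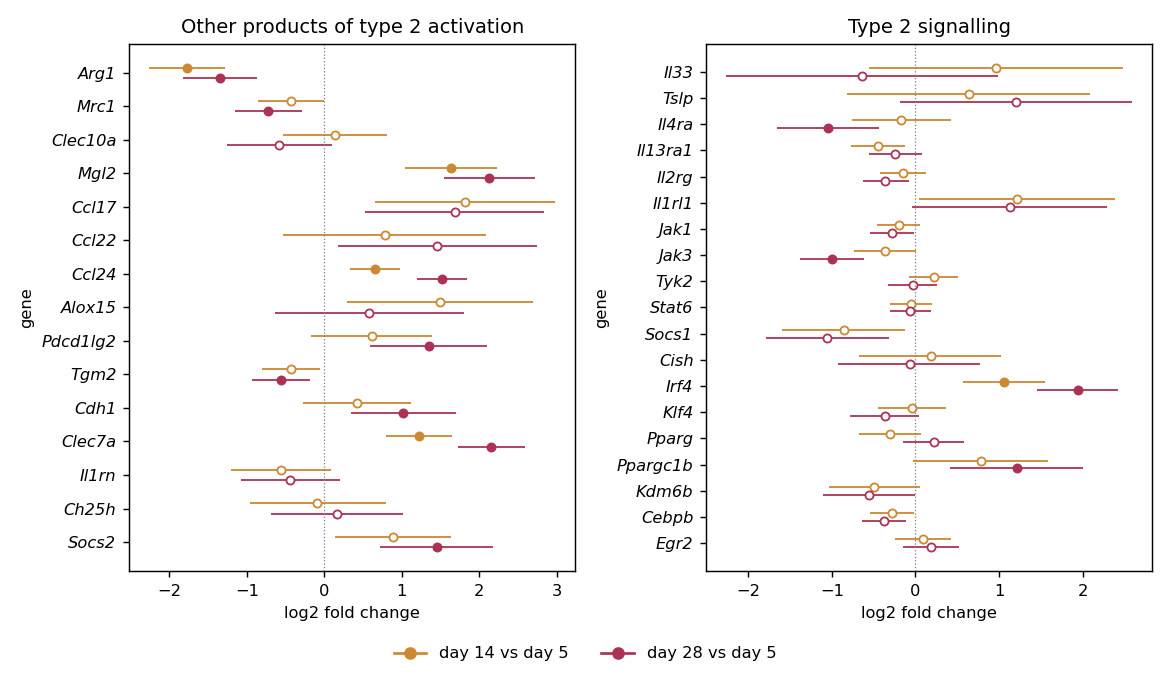
Log2 fold changes of 15 other products of type 2 activation (left) and of 19 genes of type 2 signalling (right) at day 14 and at day 28 against day 5, with 95% intervals and filled points where the adjusted p is under 0.05 (edgeR). Clec7a, Mgl2 and Ccl24 lie to the right and Arg1 to the left in both comparisons, and Stat6 lies at 0.

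Markers of other cells were read in the same libraries, since several members are also products of granulocytes. All 9 macrophage markers were above 3 fragments in every group, with a summed level of 16200 to 22300 FPKM, most of it Lyz2, the lysozyme gene. Of these 9, Cd14, which encodes a protein of the sort gate, was lower at day 14 (log2 fold change -0.75, adjusted p = 0.0357) and at day 28 (-0.76, adjusted p = 0.0145, edgeR) than at day 5. Emr1, which encodes F4/80, also of the gate, was lower at day 28 than at day 5 (-1.01, adjusted p = 0.0065, edgeR), and the other 7 were not called. The part of these differences in the rise of Retnla and Ear2 was not tested. Among 6 eosinophil markers, Epx and Prg3, which encode granule proteins, had at most 1 fragment per library, and Prg2 had 13 in day 14 replicate 1 and at most 3 elsewhere. The summed level of the list was 1.79 to 2.23 FPKM at day 5, 1.79 to 5.71 at day 14 and 3.38 to 3.4 at day 28. Siglec5 (Siglec F), whose protein was a sort exclusion marker, made up part of this and was higher at day 28 than at day 5 (0.413 to 0.551 against 1.57 and 1.91 FPKM, log2 fold change 1.85, adjusted p = 0.0105, edgeR). Ccr3, the eotaxin receptor gene, had 66 to 190 fragments per library (0.957 to 3.42 FPKM), made up the largest share of the sum at day 5 and was not called (log2 fold change 0.19 between days 5 and 28, adjusted p = 0.817, edgeR). Il5ra had 1 to 24 fragments. The part of eosinophils in the rise of Ear2 was not tested. The 6 dendritic cell markers summed to 14.6 to 31.1 FPKM at day 5, 58.8 and 181 at day 14 and 297 to 313 at day 28, with the days in the same order as for Ear2. At days 14 and 28 most of this was Itgax, which encodes CD11c and is also expressed by macrophages (6.41 to 18.3 FPKM at day 5, 34.1 and 170 at day 14, 294 and 267 at day 28). Of the other 5, Ccr7 was called higher at day 28 than at day 5 by edgeR (log2 fold change 1.43, adjusted p = 0.04) and 4 were not called. DESeq2 and limma on log2(FPKM + 1) called only Itgax of the 6 there. The part of dendritic cells in the rise of Ear2 and Retnla was not tested.

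Neutrophil and fibroblast markers had their highest sums at day 14, as Retnlg and Chi3l1 did. The 11 listed neutrophil markers summed to 329 to 358 FPKM at day 5, 581 to 591 at day 14 and 147 to 293 at day 28, most of it S100a8 and S100a9, while Elane was at 0 in all libraries. Of the 7 neutrophil markers tested, 1, Mmp8, was called lower at day 14 than at day 5 and none in the step to day 28, where all 7 had an unadjusted p under 0.05 and a lower level at day 28 (lowest adjusted p = 0.0763, edgeR). In that step DESeq2 called 4 of them lower and limma none. Between days 5 and 14, S100a8, S100a9, Ltf, Lcn2 and Cxcr2 were higher at an unadjusted p under 0.05 without passing the correction (lowest adjusted p = 0.0515, edgeR), and DESeq2 called Lcn2 and S100a9 higher. The 6 fibroblast markers, all above 3 fragments in at least 1 library of each day, summed to 72.1, 34.7 and 27.8 FPKM at day 5, 222 and 80.2 at day 14, and 34.9 and 56.1 at day 28. The 4 libraries with the highest fibroblast sums were also the 4 with the highest Retnlg levels, and day 14 replicate 1 was highest in both and in Chi3l1 and Retnla. Col1a2, a collagen gene, was called higher at day 14 than at day 5 (log2 fold change 1.86, adjusted p = 0.035, edgeR). All 6 fibroblast markers had an unadjusted p under 0.05 there, with a median log2 fold change of 1.74. In the step to day 28, 5 of them had an unadjusted p under 0.05 (median -1.72) and none was called (edgeR). DESeq2 called Col1a2 and Dcn higher at day 14 and Dcn lower in the step to day 28, and limma called none. The part of neutrophils or fibroblasts in the levels of Retnlg and Chi3l1 was not tested. The 6 monocyte markers summed to 533 to 715 FPKM at day 5 and 232 to 277 at day 28. Between these days 5 of them were called lower and 1, Ccr2, higher (edgeR), against 7.51% of all genes lower and 7.74% higher.

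The genes whose courses were most like each member over the 7 libraries were taken by the Pearson correlation of log2(CPM + 1), searched among 7552 tested genes with a mean of at least 5 FPKM. For Ear2 these were Las1l (r = 0.996), Atg13 (0.991) and Dcstamp (0.989). Dcstamp, which encodes a protein needed for the fusion of osteoclasts and macrophages, had means of 0.629, 4.67 and 15.6 FPKM at days 5, 14 and 28, the only one of the 3 with a rise of comparable size. For Retnla they were Rassf5 (0.983), S1pr2 (0.982) and B4galt3 (0.979), all with much smaller changes, such as 7.29, 11.4 and 10.9 FPKM for Rassf5. For Retnlg they were Col1a1 (0.964), Vcam1 (0.962) and Rplp1 (0.955), of which Col1a1 is in the fibroblast list. For Chi3l1 they were P2ry14 (0.963), Tmem205 (0.959) and 3110062M04Rik (0.954), and for Chi3l3 Golgb1 (0.956), Casc3 (0.949) and Morc2a (0.94). With 7 libraries in 3 groups, and with so many genes searched, high values arise readily, and they are given as a description.

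Among the members themselves, the same measure was 0.83 for Retnla with Ear2 and 0.76 for Retnlg with Chi3l1, while it lay between -0.41 and 0.41 for the other 8 pairs. The levels of Retnla and Ear2 lay closer together at day 28 than at day 14. The FPKM of Ear2 was 0.0604 and 0.149 times that of Retnla at day 14 and 0.356 and 0.778 times at day 28.

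**Figure D5:**
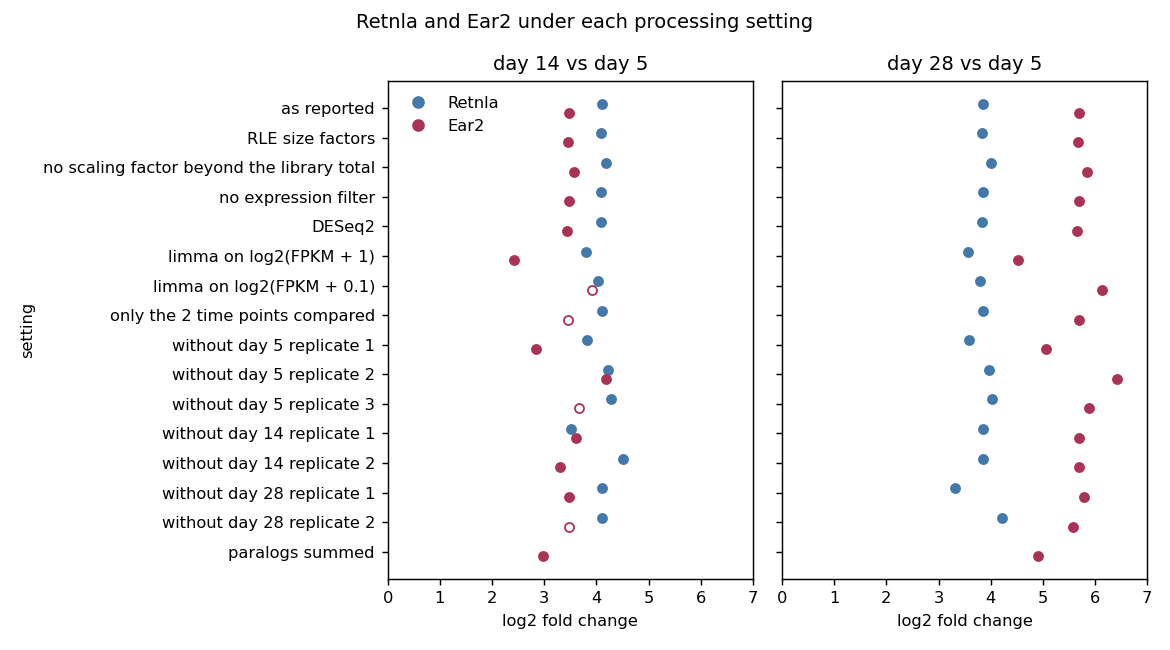
Log2 fold change of Retnla and Ear2 against day 5 (horizontal axis, log2) under each processing setting but the replicate block (vertical axis), filled where the adjusted p is under 0.05. All points lie well above 0. At day 14 vs day 5, Retnla is filled in the settings shown and Ear2 is open in 4 settings, whereas at day 28 vs day 5 every point is filled.

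The direction of the rises in Retnla and Ear2 did not depend on the setting. Over all alternatives, including single libraries left out, the difference between days 28 and 5 had an adjusted p of at most 0.0144 for Retnla and 0.0145 for Ear2.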

How the data were processed

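RNASeq libraries of sorted macrophages were prepared from polyA+ RNA with the NEBNext Ultra kit and sequenced as single-end reads. According to the labels and methods, the authors used cutadapt 1.8 for trimming, TopHat2 2.0.13 for mapping to UCSC mm10 and Cuffdiff 2.2.1 for quantification. For each gene and library, the authors deposited an expected count (the estimated fragments of the gene before scaling) and an FPKM value, which adjusts for transcript length and library size. Their treatment of reads with several matches and of strand is not given in the sources used here.

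The expected counts, rounded, were compared by the quasi-likelihood F test of edgeR 4.0.16 (R 4.3.3) after TMM scaling and edgeR's own filter on low counts. The model held all 7 libraries and the time point alone. Adjusted p-values follow Benjamini and Hochberg over 12858 tested genes. Calls were made at an adjusted p under 0.05. SE and 95% intervals are approximate, being computed from F values. The fit was tested on simulated data. FPKM values served for levels. Fragments cover counting error only, with a floor of 3. Depth was 18027190 to 35247116 fragments. Alternatives were DESeq2 1.42.0, limma 3.58.1 on log2(FPKM + 1) and log2(FPKM + 0.1), RLE or no scaling factors, no expression filter, fits of the 2 time points compared, the replicate number as a block, an adjusted p under 0.01, summed paralogs, and each library left out in turn. Where this left a day with 1 library, that library was assumed to vary like the others.

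Named genes were the 6 members, their listed relatives, the called genes of both type 2 lists with Il4, Il13, Il4ra and Stat6, and the 3 genes most like each tested member. Itgax, Ccr7, Siglec5, Col1a2 and other marker genes, and list genes called only by DESeq2 or limma, were named after their values were seen. The members and lists were chosen with earlier results of these data known. Some items are not reported here.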

Additional observations from a re-analysis of the deposited data

How the results depend on the processing

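Of the 5 tested members, Retnla and Ear2 were called higher at day 28 than at day 5 under every alternative run. Over all 7 libraries left out singly, the log2 fold change between these days ran from 3.31 to 4.22 for Retnla and from 5.06 to 6.42 for Ear2. Between days 5 and 14 it ran from 3.52 to 4.52 for Retnla and from 2.84 to 4.19 for Ear2. In that comparison 1 member was called with limma on log2(FPKM + 0.1) and 1 in the fit of the 2 time points alone (Retnla in both), 1 at an adjusted p under 0.01, and 1 to 3 with single libraries left out. Between days 14 and 28, 1 member, Ear2, was called with no expression filter, and 0 to 1 with single libraries left out, the 1 being Chi3l1 without day 14 replicate 2. Against the mean of days 5 and 28, the members called numbered 1 with no scaling factor, 2 with no expression filter, 1 with DESeq2 and 0 to 2 with single libraries left out.

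The number of all genes called moved more. Between days 5 and 14 it was 614, and 1429 with no expression filter, 1309 with DESeq2, 252 and 277 with limma on log2(FPKM + 1) and log2(FPKM + 0.1), 315 with the 2 time points alone, 24 at an adjusted p under 0.01, and 52 to 1728 with single libraries left out. Between days 14 and 28 it was 8, and 56 with no scaling factor, 390 with no expression filter, 333 with DESeq2, 0 with either limma fit, 0 with the 2 time points alone, 0 at an adjusted p under 0.01, and 0 to 629 with single libraries left out. Between days 5 and 28 it was 1960, and 597 at an adjusted p under 0.01 and 452 to 2746 with single libraries left out. For day 14 against the mean of days 5 and 28 it was 2, and 10 with no scaling factor, 229 with no expression filter, 193 with DESeq2, 0 with either limma fit, 0 at an adjusted p under 0.01 and 0 to 273 with single libraries left out. The cause of these differences was not tested.

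Days share replicate numbers, and whether these numbers pair the samples is not known. Over 7613 genes, libraries with the same number deviated from their day means with a correlation of 0.175 and 0.0449 between days 5 and 14, 0.0842 and 0.0249 between days 5 and 28, and -0.0538 between days 14 and 28. At days 14 and 28, with 2 libraries each, the deviations mirror each other, so these values cannot decide it. Neither the labels nor the methods give a shared litter or day. With the replicate number as a block, 0 members and 6 genes were called between days 5 and 14, 0 genes between days 14 and 28, 735 genes between days 5 and 28, and 0 genes for day 14 against the mean. Under this block Retnla had a log2 fold change of 4.18 (adjusted p = 0.0532) by day 14 and 3.93 (adjusted p = 0.009) by day 28, and Ear2 had 3.73 (adjusted p = 0.0975) and 5.98 (adjusted p = 0.0118, edgeR). The block leaves fewer residual degrees of freedom.

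Differences that were not called changed sign in a few settings. Retnlg between days 5 and 28 was at 0.06 with no scaling factor and ran from -0.47 to 0.33 with single libraries left out. Chi3l3 ran from -0.27 to 1.68 between days 14 and 28 and from -1.28 to 0.3 between days 5 and 28, and Retnla from -0.79 to 0.33 between days 14 and 28. With 2 libraries at days 14 and 28, and 0 to 14 fragments of Ear2 at day 5, the sizes of these changes are known only within wide intervals.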

Other observations

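Other ribonucleases of the RNase A superfamily, the wider family of the Ear genes, were read in the same libraries. Rnase4, a widely expressed secreted ribonuclease, was at 49.5, 54.6 and 47.6 FPKM at day 5, 81.6 and 50.8 at day 14, and 52.7 and 57.8 at day 28, a higher level than Ear2 in each library. Its log2 fold change between days 5 and 28 was 0.14 (adjusted p = 0.622, edgeR). Ang, which encodes angiogenin and shares its locus with Rnase4, lay between 1.64 and 5.57 FPKM, and Rnase6, an antimicrobial ribonuclease, between 1.46 and 4.76 FPKM, with its 2 highest libraries at day 14. Rnase1 had 0 fragments in all libraries. Of the 3 of these genes that were tested, none was called in any comparison between days by edgeR (lowest adjusted p = 0.0849, 2 at an unadjusted p under 0.05 between days 5 and 14), DESeq2 or limma on log2(FPKM + 1).

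Markers of mast cells and basophils summed to at most 0.874 FPKM, with Mcpt8 and Fcer1a at 0 in all 7 libraries. The 5 Schwann cell markers summed to 10.7 to 11.5 FPKM at day 5, 12.7 and 19.9 at day 14, and 17.7 to 19.9 at day 28, most of it Mbp. Mbp, the only 1 tested by edgeR, was called higher at day 28 than at day 5 (log2 fold change 0.75, adjusted p = 0.0296, edgeR). DESeq2 and limma on log2(FPKM + 1) also called it. The part of Schwann cells in the levels of the members was not tested.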
